A study of Mus musculus with 3 samples.

Results

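The Wnt ligands, receptors and modulators are a set of 60 genes of the Wnt signalling pathway, listed by name with no threshold on their signal, of which 59 had a probe set annotated with 1 gene symbol, among 19938 such genes on the array. The gene without such a probe set, Tcf7, is not analysed here. Probe sets of a gene were averaged, which concerned only Wnt4 here. The genes fall into 7 roles with 19 ligands, 2 secretion genes, 18 receptors and co-receptors, 8 secreted inhibitors, 3 genes of receptor turnover and ligand inactivation, 6 cytoplasmic genes and 3 nuclear factors. They were measured on 3 Affymetrix arrays, each hybridised with amplified RNA from the sorted cells of 1 ureteric bud of a CD-1 mouse embryo at 10.5 days post coitum (Theiler stage 18). All samples carried the transgene Tg(Hoxb7-EGFP)33Cos, a green fluorescent reporter under regulatory DNA of Hoxb7 that is active in nephric duct and bud cells, and cells were sorted for the reporter. The sex of the embryos is given as unknown. The 3 samples form 1 group without a control, and the labels do not say whether the buds came from separate embryos. The p-values therefore concern only these samples, and for a gene with 1 identical value on all arrays they hold no spread between buds.

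The ureteric bud is the epithelial outgrowth that branches into the collecting system of the kidney. Wnt proteins are lipid-modified signals that bind Frizzled receptors. With the co-receptors Lrp5 and Lrp6 they stop the Axin and Apc destruction complex, so that beta-catenin reaches the nucleus and acts with Tcf and Lef factors. In the kidney, Wnt9b from the bud induces the mesenchyme to form nephrons, Wnt11 marks the bud tips, and Wnt4 acts in the induced mesenchyme.

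The values are log2 signals as deposited, and a gene was called above background where its mean over the arrays lay above the 95th percentile of probe sets for olfactory receptors, which the kidney bud was assumed not to use (limma, one-sided, Benjamini-Hochberg adjusted p under 0.05 over all genes). That level was 5.40, 5.45 and 5.41 log2 on arrays 1, 2 and 3, and 4.48% of the olfactory receptor genes themselves were called. The choice of the 95th percentile nearly fixes that share in advance, so it is no measure of false calls. Signals of different probes depend on the probes, so levels below are given per gene and are not an order of abundance. In cells taken from a whole bud, fewer cells that use a gene and less RNA per cell cannot be told apart. The 3 arrays limit the precision of every level. Of the 59 Wnt genes, 31 held 1 identical value on all 3 arrays, 21 were identical on 2 of them and 7 differed on all 3, against 51.7%, 28.7% and 19.6% of all genes. An identical value carries no measured spread between buds, so the p-value of such a gene rests on the 3 background levels and on the spread that limma borrows from other genes.

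The sorted cells were checked against marker genes. All 10 ureteric bud markers were above background, with the GDNF receptor Ret at 8.69, 8.35 and 8.18 log2 and the calcium-binding protein Calb1 at 11.49, 11.52 and 11.38 log2 on arrays 1, 2 and 3. Markers of other cells were above background in 7 of 10 genes for endothelium, 3 of 7 for erythroid cells, 2 of 6 for leukocytes, 2 of 8 for metanephric mesenchyme and 3 of 8 for stroma. Of all genes 53.0% were called, and no cell type is read as present or absent from these counts. The endothelial gene Emcn had 8.37, 6.73 and 9.55 log2 and Cdh5 had 8.22, 5.89 and 8.07 log2 on arrays 1, 2 and 3, both above background with array 2 the lowest. The endothelial markers Kdr, Esam and Sox17 were not called. The embryonic globin gene Hbb-y had 8.86, 5.48 and 8.52 log2 and was not called (limma adjusted p = 0.053), nor were Hbb-bh1, Gata1 and Klf1. The called erythroid markers were Hba-x, at 7.98, 5.87 and 7.39 log2 (limma adjusted p = 0.0267), Alas2 and Slc4a1. Alas2 was at 5.64 log2 and Slc4a1 at 5.83 on each array. For the metanephric mesenchyme, the called genes were Cited1, at 7.08, 7.13 and 6.86 log2, and Wt1, at 5.60 log2 on each array, while Six2, a nephron progenitor gene, at 5.21, 5.21 and 5.18 log2, was among those not called. For stroma, Col1a1 at 6.44 log2, Col3a1 at 6.02 and Twist1 at 5.82 on each array were called, and Foxd1 at 3.42 log2 on each array was not. The part of other cells in the Wnt signals was not tested.

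Promoter sequences are shown for 4 genes around which the account turns, the bud ligands Wnt11 and Wnt9b and the pathway inhibitors Dkk1 and Axin2. Each run gives the 250 bases before the start of the gene in RefSeq (build GRCm38.p6), on the strand of the gene. Capitals mark CTTTGA, the core letters bound by Tcf and Lef factors, or its reverse complement TCAAAG.
Wnt11, chr7:98834862-98835111, plus strand: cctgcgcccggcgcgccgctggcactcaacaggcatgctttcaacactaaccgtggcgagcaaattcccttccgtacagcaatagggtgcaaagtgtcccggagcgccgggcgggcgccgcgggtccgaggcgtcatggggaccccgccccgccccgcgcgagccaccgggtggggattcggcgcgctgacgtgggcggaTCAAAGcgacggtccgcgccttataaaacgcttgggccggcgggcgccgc
Wnt9b, chr11:103749822-103750071, minus strand: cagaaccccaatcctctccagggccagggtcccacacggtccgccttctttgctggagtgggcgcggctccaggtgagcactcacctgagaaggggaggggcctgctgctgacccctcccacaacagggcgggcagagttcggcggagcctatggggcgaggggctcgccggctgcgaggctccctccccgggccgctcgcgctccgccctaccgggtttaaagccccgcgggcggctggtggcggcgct
Dkk1, chr19:30549497-30549746, minus strand: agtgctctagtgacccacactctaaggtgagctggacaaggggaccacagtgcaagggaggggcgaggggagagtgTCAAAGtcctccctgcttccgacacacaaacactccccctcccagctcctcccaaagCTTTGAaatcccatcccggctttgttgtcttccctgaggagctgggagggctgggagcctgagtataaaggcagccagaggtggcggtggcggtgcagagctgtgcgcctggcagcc
Axin2, chr11:108920099-108920348, plus strand: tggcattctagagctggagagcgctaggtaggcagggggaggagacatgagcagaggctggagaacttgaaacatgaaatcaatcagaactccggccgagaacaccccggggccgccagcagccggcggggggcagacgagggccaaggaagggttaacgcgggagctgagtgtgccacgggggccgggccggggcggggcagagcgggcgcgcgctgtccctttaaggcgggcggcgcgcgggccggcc
The Wnt11 run holds the letters once, starting 50 bases before the gene start, and the Dkk1 run holds them at 174 and 117 bases before it. The runs of Wnt9b and Axin2 do not hold them, nor does a second Wnt11 window in the table. Windows of 300 bases, reaching past the start, were given for 41 of the 60 genes, and 6 of their 50 windows (12%) held the core on either strand, against 16.0% of all 32851 windows. Those were windows of Dkk1, Fzd1, Lef1, Ror1, Wnt11 and Wnt5b. The longer CTTTGAT, which contains the core, or its reverse complement ATCAAAG was in 2 of the 50 windows (4.00%), those of Wnt11 and Wnt5b, against 3.73% of all windows. These matches are letters in a window and were not tested for binding.

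Across the set, 43 of 59 Wnt genes (72.9%) were above background, against 53.0% of all genes. The median Wnt gene lay 0.66 log2 above the background level, against 0.22 log2 for the median of all genes. When a gene had to lie more than 1 log2 above the level by the same test, a margin chosen after seeing the data, 20 of 59 (33.9%) passed, against 28.0% of all genes. Ligands gave 11 of 19 above background but 1 of 19 past the margin. Receptors and co-receptors gave 15 of 18 and 8 of 18, secreted inhibitors 3 of 8 and again 3 of 8, cytoplasmic genes 6 of 6 and 3 of 6, and nuclear factors 3 of 3 and 3 of 3. No test was made between roles.

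**Figure D1:**
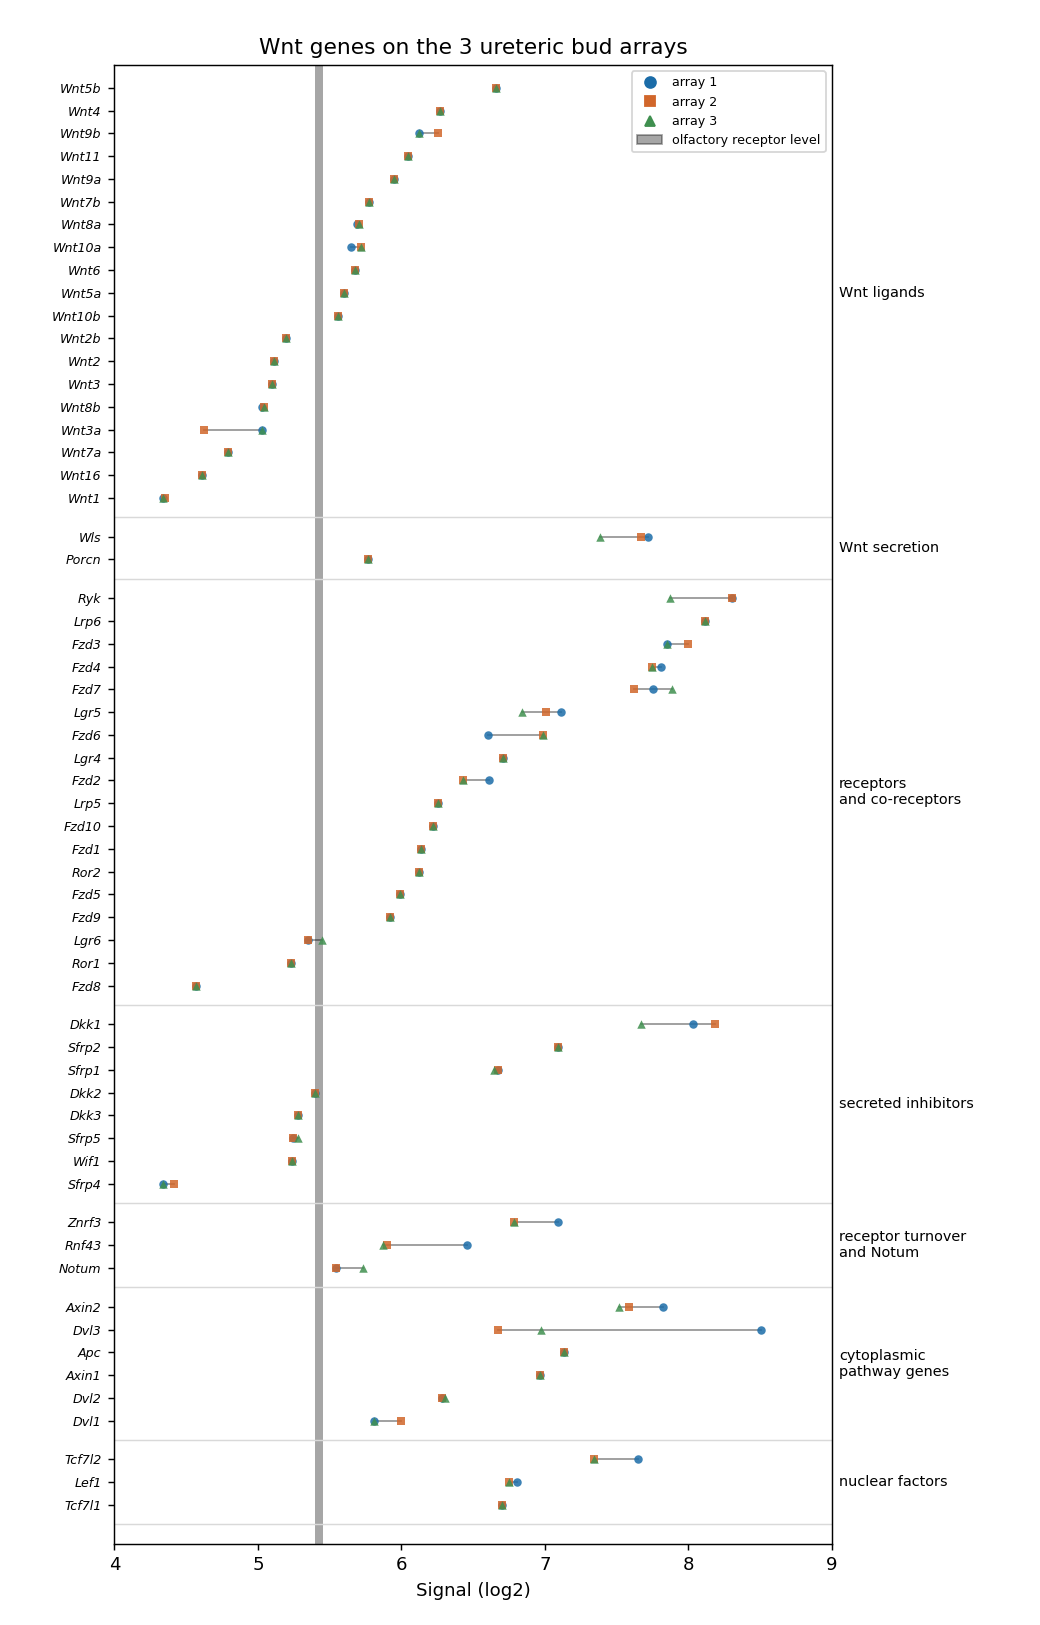
Signal in log2 (horizontal axis) of the 59 Wnt genes by role, sorted by mean within each role. Symbols are the 3 arrays, grey lines join a gene's lowest and highest array, and the grey band spans the olfactory receptor level of 5.40 to 5.45 log2. Of the 19 ligands 11 were called above the band, up to 1.24 log2 above the level, and 8 were not. Dvl3 has the widest spread between arrays.

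The ligands known from the bud were above background by modest amounts. Wnt11, the tip ligand, had 6.05 log2 on each of the 3 arrays, 0.63 log2 above the level (SE 0.02, limma adjusted p = 3.76e-05). Wnt9b, the inducer of nephron formation, had 6.12, 6.25 and 6.12 log2 on arrays 1, 2 and 3, 0.74 log2 above it (SE 0.03, limma adjusted p = 4.00e-05). Arrays 1 and 3 were identical for Wnt9b and array 2 was slightly higher, and every value lay above its array's level. Wnt7b, which acts from the collecting duct epithelium in the later medulla, and Wnt6, a ligand also known from the bud, held 5.78 and 5.68 log2 on every array. Both were called (limma adjusted p of 0.000219 and 0.000644), and the call of Wnt6 was lost without array 1. Its value was the same on every array, and it lay 0.25 log2 above the level in that fit, against 0.26 log2 with all arrays. The SD that limma borrows from other genes was 0.18 log2 in that fit, against 0.05 log2 with all arrays. Against the 99th percentile of olfactory receptors, which was 6.01 to 6.10 log2, only Wnt4 and Wnt5b among the ligands were still called, and Wnt11 lay at -0.02 log2 from that level.

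Of the other ligands above background, most held 1 identical value on the arrays, which gives no measure of their spread between buds. Wnt5b, a ligand of the branch that works without beta-catenin, was at 6.66 log2 on each array and was the ligand past the margin of 1 log2. Wnt4 averaged 6.27 log2, but its pair of probe sets disagreed at 7.19 and 5.35 log2 on every array, and the lower one was under the background level. Wnt9a was at 5.95 log2, Wnt5a at 5.60 and Wnt10b at 5.56 on each array. Wnt10a had 5.65, 5.72 and 5.72 log2 and Wnt8a 5.69, 5.71 and 5.71 log2 on arrays 1, 2 and 3. Wnt5a and Wnt10b lay within 0.2 log2 of the level and lost their calls without array 1 and without array 3 (limma adjusted p of 0.181 and 0.168 for Wnt5a, 0.298 and 0.28 for Wnt10b). Their values were the same on every array, and the SD that limma borrows was 0.18 log2 in both of those fits, against 0.05 log2 with all arrays.

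Of the 19 ligands, 8 were not above background. Wnt1, a signal of the early brain and neural tube, had 4.34, 4.35 and 4.34 log2 on arrays 1, 2 and 3. Wnt2 was at 5.11 log2, Wnt2b at 5.2, Wnt3 at 5.10, Wnt7a at 4.79 and Wnt16 at 4.61 on each array. Wnt8b averaged 5.04 ± 0.01 log2 (SD, n = 3). Wnt3a had 5.03, 4.63 and 5.03 log2 on arrays 1, 2 and 3, the widest range of any ligand at 0.40 log2. Several ligand genes are neighbours in the genome, and 3 of 4 such pairs were split by the call. With 57.9% of ligands and 53.0% of all genes called, split pairs are common by the call rate alone. The share of split pairs among all neighbouring genes was not counted, and nothing about neighbours is read from these pairs. Wnt9b was above background and its neighbour Wnt3 not, Wnt9a was and Wnt3a not, Wnt10b was and Wnt1 not, while Wnt6 and Wnt10a both were.

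The genes needed to release Wnt proteins were both above background, against 53.0% of all genes. Wls, the carrier that takes Wnt proteins to the cell surface, had 7.71, 7.67 and 7.38 log2 on arrays 1, 2 and 3, 2.17 log2 above the level (SE 0.08, limma adjusted p = 3.30e-05). Array 3 was the lowest, and all arrays lay far above background. Porcn, the enzyme that adds the lipid, was at 5.77 log2 on each array and was called by 0.35 log2, a call lost at the 99th percentile.

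Frizzled receptors were above background in 9 of 10 genes, against 53.0% of all genes, and the calls of Fzd1, Fzd5 and Fzd9 were lost at the 99th percentile of olfactory receptors. Fzd3 had 7.85, 8.0 and 7.85 log2 on arrays 1, 2 and 3, and Fzd4 had 7.81, 7.74 and 7.74 log2. They lay 2.48 and 2.34 log2 above the level (limma adjusted p of 2.08e-06 and 2.55e-06). Fzd7 had 7.75, 7.62 and 7.88 log2 and Fzd6 6.61, 6.99 and 6.99 log2, with array 1 alone the lowest for Fzd6. Fzd2 had 6.61, 6.43 and 6.43 log2. Fzd10 was at 6.22 log2, Fzd1 at 6.13, Fzd5 at 5.99 and Fzd9 at 5.92 on each array. Fzd8 was the exception at 4.57 log2 on each array, 0.85 log2 below the background level.

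The co-receptors and the receptors of beta-catenin-independent signalling followed. Lrp6, which pairs with Frizzled in beta-catenin signalling, was at 8.12 log2 on each array and its relative Lrp5 at 6.26 log2. The atypical receptor Ryk had 8.30, 8.30 and 7.87 log2 on arrays 1, 2 and 3, with array 3 lowest, and lay 2.74 log2 above the level (SE 0.10, limma adjusted p = 4.15e-05). The receptor tyrosine kinase relative Ror2 was at 6.12 log2 on each array and above background, while Ror1 at 5.23 log2 was not. The call of Ror2 was lost at the 99th percentile of olfactory receptors, and Ror1 was called at the 90th. For the R-spondin receptors, Lgr5, known as a stem cell marker of the gut, had 7.11, 7.01 and 6.84 log2 and Lgr4 had 6.71 log2 on each array. Lgr6 had 5.35, 5.35 and 5.44 log2, 0.04 log2 under the mean level, and was not called.

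Of the secreted inhibitors, 3 were well above background and 5 at or under it. That is 37.5% called, against 53.0% of all genes, and nothing about the inhibitors is read from this split. Dkk1, which binds Lrp6 and blocks it, had 8.03, 8.18 and 7.67 log2 on arrays 1, 2 and 3. It lay 2.54 log2 above the level (SE 0.11, limma adjusted p = 5.50e-05), with array 3 the lowest and all arrays far above. The Wnt-binding proteins Sfrp2 and Sfrp1 were at 7.09 log2 on each array and at 6.67, 6.67 and 6.64 log2. Dkk2 was at 5.40 log2, Dkk3 at 5.28 and the Wnt-binding Wif1 at 5.24 on each array, Sfrp5 had 5.24, 5.24 and 5.28 log2, and Sfrp4 had 4.34, 4.42 and 4.34 log2. Of these 5, only Sfrp4 was more than 0.2 log2 from the level, and with the 90th percentile of olfactory receptors (5.03 to 5.05 log2) the count of inhibitors above background was 7 of 8.

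Among genes that act in negative feedback on the pathway, the members Axin2, Znrf3 and Rnf43 were called, while Nkd1 and Nkd2, described with the further lists, were not. This is not a complete list of feedback genes, and it was drawn from lists chosen with earlier results known. Of all genes 53.0% were called, and nothing about feedback is read from this split. Axin2, a scaffold of the destruction complex whose gene is a known target of beta-catenin, had 7.82, 7.59 and 7.52 log2 on arrays 1, 2 and 3. It was 2.22 log2 above the level (SE 0.08, limma adjusted p = 2.99e-05). Znrf3 and Rnf43 encode ubiquitin ligases that remove Frizzled from the cell surface. Znrf3 had 7.09, 6.78 and 6.78 log2 (limma adjusted p = 0.00016). Rnf43 had 6.46, 5.90 and 5.87 log2, and array 1 stood above the other arrays by over 0.5 log2. Its call (limma adjusted p = 0.0133) was lost without array 2 (adjusted p = 0.0704). Notum, an enzyme that removes the lipid from Wnt proteins, had 5.55, 5.55 and 5.73 log2, and its call (limma adjusted p = 0.0286) was lost when any of the 3 arrays was left out (adjusted p of 0.0676 to 0.328).

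The 6 cytoplasmic genes and the 3 nuclear factors measured were all above background, against 53.0% of all genes. The call of Dvl1 was lost at the 99th percentile of olfactory receptors, and that of Dvl3 without array 2. The scaffold Axin1 was at 6.97 log2 and Apc, the tumour suppressor of the destruction complex, at 7.13 log2 on each array. Among the Dishevelled genes, which relay the receptor signal, Dvl1 had 5.81, 6.0 and 5.81 log2 and Dvl2 had 6.28, 6.28 and 6.31 log2. Dvl3 had 8.51, 6.67 and 6.98 log2 on arrays 1, 2 and 3, and array 1 stood far above the other arrays. The transcription factor Tcf7l2 had 7.65, 7.34 and 7.34 log2, Lef1 6.80, 6.75 and 6.75 log2, and Tcf7l1 6.70 log2 on each array. All 3 factors were past the margin of 1 log2.

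Which genes stood above background depended on the level chosen. The 95th percentile of keratin-associated protein and beta-defensin probe sets was 6.82 to 6.91 log2, and against it 11 of 59 Wnt genes (18.6%) were called, against 21.1% of all genes. These 11 were Fzd3, Fzd4, Fzd7, Lrp6, Ryk, Dkk1, Sfrp2, Wls, Axin2, Apc and Tcf7l2, and no ligand was among them. At the 99th percentile of olfactory receptors 26 Wnt genes (44.1%) were called, against 35.3% of all genes.

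**Figure D2:**
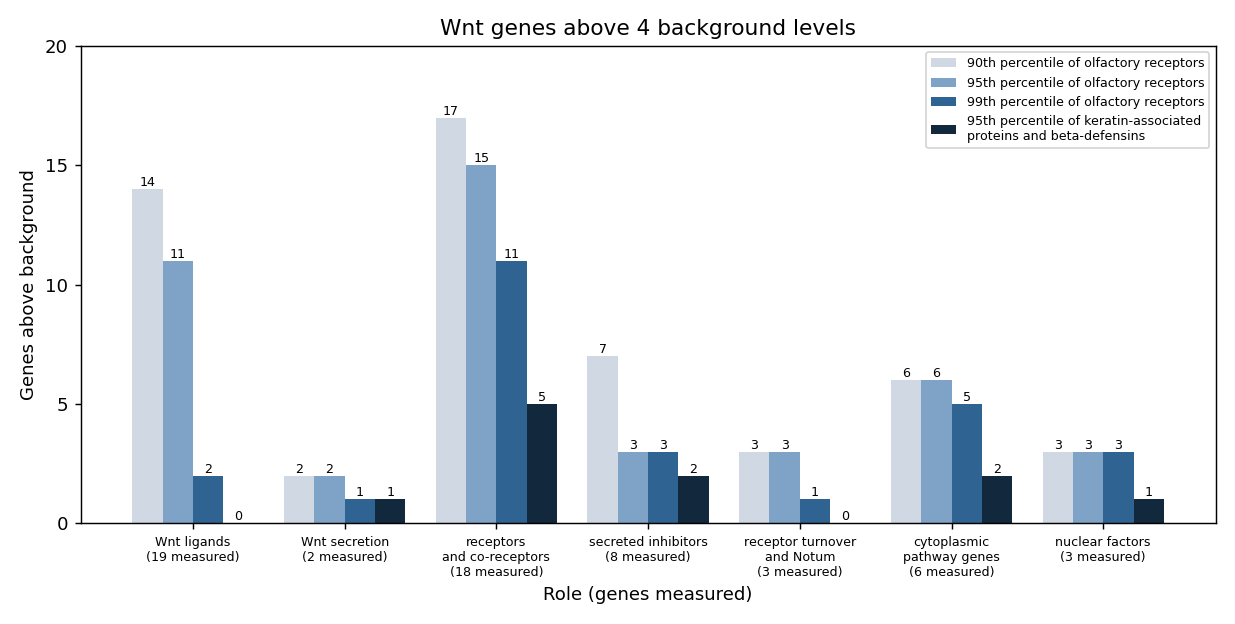
Number of Wnt genes above background (vertical axis, from 0) by role, with bars from pale to dark for the 90th, 95th and 99th percentile of olfactory receptors and the 95th percentile of keratin-associated proteins and beta-defensins. Ligands go through 14, 11, 2 and 0 of 19 genes, and receptors through 17, 15, 11 and 5 of 18.

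Differences between the buds could be read only for the 28 Wnt genes whose values were not identical on all arrays. Dvl3 was the only one of 59 (1.69%) whose highest and lowest array were over 1 log2 apart, against 2.37% of all genes, and 3 (5.08%) were over 0.5 log2 apart, against 8.38% of all genes. Nothing about the Wnt genes is read from these shares. The Dvl3 range of 1.83 log2 was reached or passed by 102 of 19938 genes (0.512%). Without array 2, the Dvl3 call above background was lost (limma adjusted p = 0.0535, against 0.0117 with all arrays), and without array 1 its range was 0.30 log2. Rnf43 and Dkk1 were the others past 0.5 log2, with ranges of 0.58 and 0.51 log2. Without array 1 the Rnf43 range was 0.03 log2, and without array 3 the Dkk1 range was 0.15 log2. Each array is 1 bud, so a difference between arrays has no replicate and was not tested.

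Of the 7 Wnt genes with a different value on every array, 5 were highest on array 1 (Lgr5, Rnf43, Wls, Axin2 and Dvl3). On array 3, 5 were lowest (Lgr5, Rnf43, Wls, Axin2 and Dkk1). Of the 473 genes on the array with a range over 1 log2, 218 were highest on array 1, 88 on array 2 and 167 on array 3. The 10 bud markers had mean signals of 8.62, 8.35 and 8.24 log2 on arrays 1, 2 and 3, with array 1 alone the highest for 8 of them and array 3 alone the lowest for 7. With the bud marker mean subtracted on each array, an alternative added after seeing the data, the range of Axin2 was 0.08 log2 against 0.30 log2 before, and that of Lgr5 0.17 against 0.27 log2. The range became smaller for 6 of the 7 genes, and for Fzd7 it became larger, 0.51 against 0.27 log2. For Dvl3 it was 1.56 log2, against 1.83 log2 before. The endothelial markers had mean signals of 6.60, 5.82 and 6.98 log2, lowest on array 2 in 10 of 10 genes, and the erythroid markers 6.41, 5.35 and 6.12 log2. Fzd7, Dvl3 and Wnt3a were the Wnt genes with array 2 alone lowest. The counts among the 7 genes were not made over all genes with 3 different values, so nothing about the Wnt genes is read from them. The part of these markers in the differences between arrays was not tested.

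**Figure D3:**
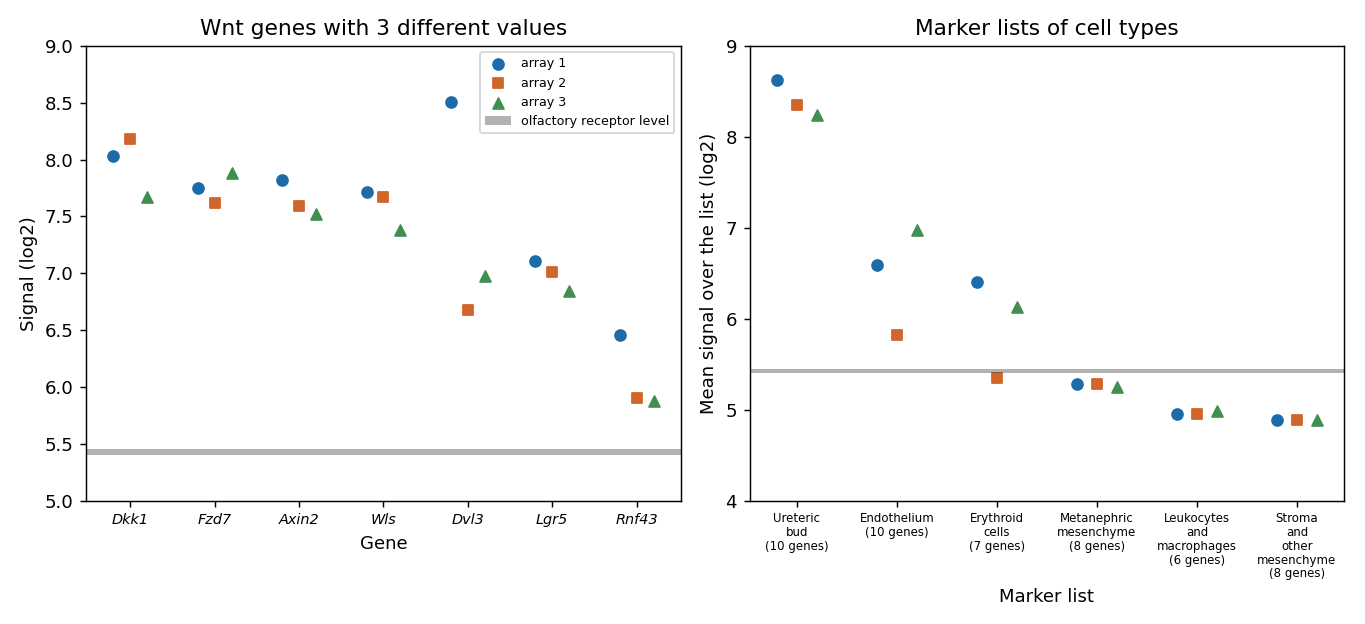
Left, signal in log2 of the 7 Wnt genes that differ on all 3 arrays, with 1 symbol per array and the grey band at the olfactory receptor level. Right, mean signal in log2 over the marker genes of each cell type on the same arrays. Dvl3 stands at 8.51 log2 on array 1 and under 7 log2 on the other arrays, bud markers are highest on array 1, and endothelial and erythroid markers are lowest on array 2.

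Other genes of the pathway, taken from 6 further lists, were above background in 65 of 92 measured genes, against 53.0% of all genes, and 28.0% of all genes were past the margin of 1 log2. Beta-catenin and its destruction complex gave 16 of 17 above background and 16 of 17 past the margin of 1 log2. Ctnnb1, which encodes beta-catenin, had 9.45, 9.38 and 9.38 log2 on arrays 1, 2 and 3. The kinase genes that mark beta-catenin for destruction were above background, with Gsk3b at 8.53 log2 on each array, Gsk3a at 7.32, 7.21 and 7.21 log2 and Csnk1a1 at 9.68, 9.93 and 9.70 log2. Apc2 at 4.91 log2 was the one not called.

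Nuclear co-factors gave 16 of 17 above background, against 53.0% of all genes, with Tle2 at 5.47 log2 not called (limma adjusted p = 0.0893). Bcl9, which links beta-catenin to Pygopus, had 9.65, 9.21 and 9.38 log2 on arrays 1, 2 and 3. Its relative Bcl9l was at 6.51 log2 on each array, and the Pygopus genes Pygo1 and Pygo2 averaged 6.18 and 6.21 log2. Cby1, an antagonist of beta-catenin, had 6.46, 6.12 and 7.41 log2, highest on array 3 by a wide gap, and was the gene of these lists whose arrays lay over 1 log2 apart.

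Of the R-spondins, which raise Wnt signalling through the Lgr receptors, and Norrin, 1 of 5 genes was above background. Rspo1 was at 5.82 log2 on each array, while Rspo2 averaged 4.65, Rspo3 4.49 and Rspo4 4.5 log2. Other extracellular and membrane modulators gave 9 of 17 (52.9%, near the 53.0% of all genes). The first 4 of that list, Frzb (3.60 log2), Dkk4 (4.83), Dkkl1 (4.55) and Kremen1 (5.33), with no spread between arrays, were not among them. Those called were Sost, Sostdc1, Apcdd1, Shisa2, Tpbg, Tmem88, Gpc3, Gpc4 and Reck. Of these, Gpc3 had the highest signal, at 10.91, 10.61 and 10.61 log2 on arrays 1, 2 and 3. Planar polarity genes gave 12 of 18, with Vangl1 at 6.65, 6.65 and 6.71 log2, Vangl2 at 6.38 log2 on each array, Celsr1 at 6.10 log2 on each array and Celsr2 at 6.15, 6.11 and 6.15 log2. These are membrane proteins that orient cells within an epithelium.

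Genes known as targets or feedback genes of beta-catenin in other tissues gave 11 of 18 above background (61.1%, against 53.0% of all genes). The cell cycle gene Ccnd1 had 9.84, 9.46 and 8.99 log2 on arrays 1, 2 and 3, in the order of the bud markers. The transcription factor Sp5 had 6.10, 6.12 and 6.12 log2 and was above background. Nkd1 and Nkd2, which restrain Dishevelled, were not, at 5.38, 5.51 and 5.38 log2 and at 5.35 log2 on each array. The feedback genes Axin2, Znrf3 and Rnf43 were called in the same 3 buds, but Rnf43 lost its call without array 2 and at the 99th percentile of olfactory receptors.

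**Figure D4:**
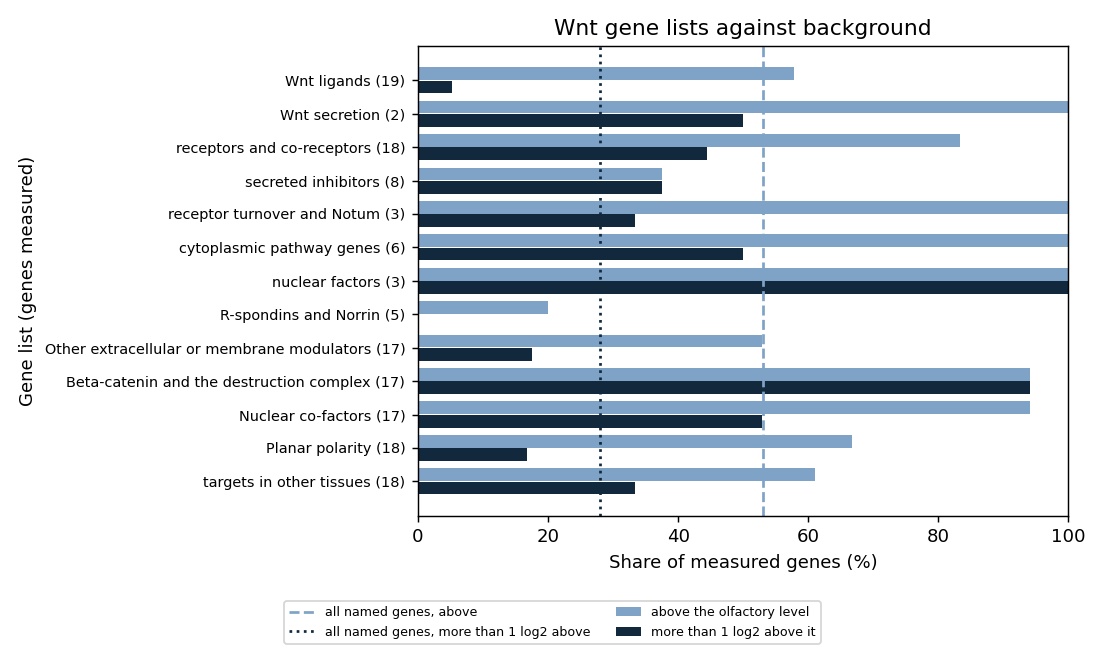
Share of measured genes in percent (horizontal axis, from 0) above the olfactory receptor level (pale bars) and more than 1 log2 above it (dark bars), for the 7 roles and the 6 further lists, with the number measured in brackets. The vertical lines mark all genes, at 53.0% and 28.0%. Beta-catenin and its destruction complex reach 94.1% in both, while ligands reach 57.9% and 5.26%.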

How the data were processed

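RNA of 3 samples, each 1 bud amplified in 1 round, was measured on Affymetrix arrays. The authors deposited 1 log2 value per probe set and array. Base 2 was inferred from the range of the values. Per the submitters' processing notes, the authors used Affymetrix Expression Console. Its version and its background correction, normalization and summarization were not given in the sources used here. Columns were used as deposited, with medians of 5.47, 5.50 and 5.48 log2 on arrays 1, 2 and 3.

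Gene symbols came from the platform annotation. Of 35557 probe sets, 21789 had 1 symbol, 1621 several and 12147 none listed. Probe sets of a gene were averaged. Names, neighbours and promoters came from RefSeq tables (GRCm38.p6). For each gene limma 3.58.1 in R 4.3.3 tested the mean of value minus background level above 0, one-sided, over 19938 genes, with Benjamini-Hochberg adjustment. Its prior SD was 0.05 log2, on 1.71 degrees of freedom. Identical means a difference of at most 1e-06 log2.

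The members were listed by name, with no threshold on signal, but they, the further lists and the alternatives were chosen with earlier results of these data known. All measured members are named. From each further list the first 4 measured genes and those with arrays over 1 log2 apart are named. Others were chosen after their values were seen (Tle2, Apc2, the called extracellular and membrane modulators, and markers). Alternatives were other background levels and sets, normalizations, probe set choices, filters, treatments of identical values, a rule without a model and leaving out each array.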

Additional observations from a re-analysis of the deposited data

How the results depend on the processing

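The count of 43 of 59 Wnt genes above background was the same with quantile normalization and with a rule without a model. Taking each gene's brightest probe set, median centring, and leaving out the lowest 25% of probe sets also kept it, but could hardly change it. Only Wnt4 had more than 1 probe set, and median centring shifts the background level with the values. The filter cut at 4.68 log2, under the background level. The count was 42 with an SD floor for identical values, 52 with the 90th percentile, 52 with vomeronasal receptors, and 39 to 40 without 1 array. It was 26 with the 99th percentile, 11 with keratin-associated proteins and beta-defensins, 20 with a margin of 1 log2 (chosen after seeing the data) and 22 of 28 with identical genes left out, where fewer genes were tested. A higher level lowers such counts by its construction. By role, the 99th percentile left 2 ligands, 1 secretion gene and 1 gene of receptor turnover and Notum. With keratin-associated proteins and beta-defensins, 0 ligands, 1 secretion gene, 5 receptors, 0 turnover genes, 2 cytoplasmic genes and 1 nuclear factor were called. The margin left 1 ligand, 1 secretion gene, 8 receptors, 1 turnover gene and 3 cytoplasmic genes, and leaving out identical genes 3 ligands, 1 secretion gene and 7 receptors. Secreted inhibitors numbered 7 with the 90th percentile and 7 with vomeronasal receptors. Without 1 array, ligands numbered 8 to 11, turnover genes 1 to 2 (1 without array 2) and cytoplasmic genes 5 to 6. The calls lost were Wnt5a, Wnt6, Wnt10b and Notum without array 1, Rnf43, Dvl3 and Notum without array 2, and Wnt5a, Wnt10b and Notum without array 3. The prior SD of limma was 0.18 log2 without array 1, 0.01 without array 2 and 0.18 without array 3, against 0.05 with all arrays. Wnt5a, Wnt6 and Wnt10b had the same value on every array, so their lost calls show no difference between buds. The 65 called genes of the further lists became 30 with keratin-associated proteins and beta-defensins, 40 of 47 with identical genes left out, 37 with the margin, and 63 to 66 without 1 array. Wnt genes with arrays over 1 log2 apart numbered 1, 3 at 0.5 log2, and 0 to 1 without 1 array (0 without array 1).

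With lower levels, genes not above background crossed it and were called. Their distances from the 90th percentile in log2 were Wnt2 0.073, Wnt2b 0.16, Wnt3 0.06, Ror1 0.19, Lgr6 0.34, Dkk2 0.36, Dkk3 0.24, Sfrp5 0.22 and Wif1 0.20. Those from the vomeronasal receptor level were Wnt2 0.25, Wnt2b 0.33, Wnt3 0.23, Ror1 0.37, Lgr6 0.52, Dkk2 0.53, Dkk3 0.41, Sfrp5 0.39 and Wif1 0.37. With higher levels, called genes came to lie below. Their distances from the 99th percentile in log2 were Wnt5a -0.46, Wnt6 -0.39, Wnt7b -0.29, Wnt8a -0.36, Wnt9a -0.11, Wnt10a -0.37, Wnt10b -0.50, Wnt11 -0.015, Fzd5 -0.075, Fzd9 -0.14, Porcn -0.30, Dvl1 -0.19 and Notum -0.46. Those from the level of keratin-associated proteins and beta-defensins were Wnt4 -0.60, Wnt5a -1.27, Wnt5b -0.21, Wnt6 -1.19, Wnt7b -1.09, Wnt8a -1.16, Wnt9a -0.91, Wnt9b -0.70, Wnt10a -1.17, Wnt10b -1.31, Wnt11 -0.82, Fzd1 -0.73, Fzd2 -0.38, Fzd5 -0.88, Fzd6 -0.0071, Fzd9 -0.95, Fzd10 -0.65, Lrp5 -0.61, Ror2 -0.75, Lgr4 -0.16, Rnf43 -0.79, Sfrp1 -0.20, Porcn -1.10, Dvl1 -0.996, Dvl2 -0.58, Lef1 -0.099, Tcf7l1 -0.17 and Notum -1.26.

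No paired analysis was possible because the design has 1 group. With 3 arrays and no control, no difference between conditions was tested, and Wnt5a and Wnt10b, with identical values on all arrays, were called within 0.2 log2 of the level.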

Other observations

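Probe sets with 1 value on all 3 arrays often shared that value, and sharing among the other probe sets was not counted. Of 35557 probe sets, 14486 held 1 value on all 3 arrays, and these held 3554 distinct values, so that 12199 of them (84.2%) shared their value to the last digit with another such probe set. Up to 179 probe sets stood on 1 value. Of the 32 Wnt probe sets with 1 value on all 3 arrays, 28 shared it with another such probe set, near the 84.2% of all such probe sets. Wnt5a, for example, and Wt1, a gene of the metanephric mesenchyme, both stood at 5.60 log2, and the planar polarity gene Celsr3 and the receptor Ror1 both at 5.23 log2.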
